A study of Arabidopsis thaliana with 248 samples.

Results

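AT1G44880 and AT5G36005 are 2 transposable element (TE) genes of *Arabidopsis thaliana*, of 33602 genes and 3903 TE genes in the count tables. They were chosen from the *ldl2* comparisons of these mRNA-seq data, in which their counts were higher without LDL2, so the *ldl2* values given here describe that choice and were not tested. AT5G36005 was chosen from sxc and cmt23, and AT1G44880 from cxs, suvh456, and cmt23. Both belong to the TE genes that the study listed as LDL2-regulated from DNA methylation in the F1 plants, and the other genes of that list serve as a reference.

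In the experiment with *ldl2*, mRNA from 2-week-old seedlings was sequenced in 9 genotypes with 3 libraries each. WT is Columbia-0. suvh456 lacks the H3K9 methyltransferases SUVH4, SUVH5, and SUVH6, and cmt23 lacks the DNA methyltransferases CMT2 and CMT3. In sxc, the F1 seed came from a suvh456 mother and a cmt23 father, and in cxs the roles of the parents were swapped, so that each F1 is heterozygous at all 5 loci. suvh456 ldl2, cmt23 ldl2, sxc ldl2, and cxs ldl2 are the same 4 genotypes without functional LDL2, and in the F1 plants with *ldl2* both parents carried it. A second experiment held 3 libraries each of WT, cxs, and cxs ashh3, the F1 of parents that both carried *ashh3*. The *ldl2* allele was *ldl2-1*, a T-DNA insertion, per the study's methods, and the labels do not give the number of seedlings in a library.

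Methylation of histone H3 at lysine 9 (H3K9me2) and methylation of cytosines outside CG (mCH) maintain each other in plant heterochromatin: SUVH proteins bind methylated DNA and methylate H3K9, and CMT proteins bind H3K9me2 and methylate cytosines, CMT3 mainly at CHG and CMT2 mainly at CHH, where H is any base but G. LDL2 belongs to the LSD1 family of histone demethylases and removes methyl groups from H3K4, including H3K4me1 in gene bodies that gain H3K9me2. ASHH3 is a histone methyltransferase that the study assigns to H3K36. TE genes are protein-coding remnants of transposons, most of which are silent in WT plants under these marks.

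AT1G44880 lies on the minus strand of chromosome 1 (chr1:16954386-16960042 in TAIR10), spans 5657 bases, and has 17 exons with 3117 bases in all in the TAIR10.1 annotation of RefSeq, which types it as a pseudogene. AT5G36005 lies on the plus strand of chromosome 5 (chr5:14144014-14149194), spans 5181 bases as 1 exon, and is also typed as a pseudogene. The files and the annotation used here assign neither gene to a TE family. Within 500 kb of the genes, 25.3% of 249 genes around AT1G44880 and 30.2% of 245 around AT5G36005 are TE genes, compared with 11.6% of all genes. The genes share no alignment with each other (blastn, E value under 0.001). Both are long for TE genes, exceeding 95.2% and 92.4% of the 3903, and both have fewer CG sites than the median TE gene, with 33.9 and 37.8 per kb compared with 52.3, while the median of the LDL2-regulated list is 38.02. Their CHG densities, 67.2 and 72.4 sites per kb over both strands, lie near the median of 62.5.

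The start regions are shown because the pathways that differ between the genotypes act through CHG and CHH sites. Each sequence runs 5′ to 3′ from 250 bases before to 50 bases after the annotated start of the gene on its own strand, in RefSeq TAIR10.1, at chr1:16959993-16960292 (minus strand) and chr5:14143764-14144063 (plus strand). Capitals mark CAG, CTG, and CCG, the CHG sites read on the strand shown. CAG and CTG are each other's reverse complement, and CCG of the opposite strand, which reads CGG here, is not marked.
AT1G44880: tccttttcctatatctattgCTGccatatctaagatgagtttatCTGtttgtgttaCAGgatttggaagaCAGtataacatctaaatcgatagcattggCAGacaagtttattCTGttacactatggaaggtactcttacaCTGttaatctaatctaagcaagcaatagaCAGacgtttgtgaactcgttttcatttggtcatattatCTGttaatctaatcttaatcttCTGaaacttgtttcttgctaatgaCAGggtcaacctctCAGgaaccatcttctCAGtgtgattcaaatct
AT5G36005: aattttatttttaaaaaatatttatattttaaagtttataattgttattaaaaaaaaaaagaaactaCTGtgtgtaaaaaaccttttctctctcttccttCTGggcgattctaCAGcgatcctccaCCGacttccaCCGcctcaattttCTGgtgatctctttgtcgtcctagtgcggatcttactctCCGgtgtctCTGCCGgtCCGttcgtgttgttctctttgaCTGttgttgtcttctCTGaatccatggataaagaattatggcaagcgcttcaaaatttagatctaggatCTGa
Both regions hold 13 marked sites. The median over the same 300 bases of all 3903 TE genes was 7, 99.0% of them hold at least 1, and 6.25% hold more than 13. Of the marked sites, 0 in AT1G44880 and 5 in AT5G36005 are CCG.

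Both genes have close relatives elsewhere in the genome, which matters for the counts because a read that maps to several places is not counted. AT1G35390 on chromosome 1 covers 100% of AT5G36005 with 97.9% identity, and AT4G03970 on chromosome 4 covers 97.8% of AT1G44880 with 92.1% identity. The first 150 ungapped bases of the longest alignment between AT1G44880 (chr1:16957307-16957456, minus strand) and AT4G03970 (chr4:1895012-1895161, plus strand) follow, with the 14 bases that differ in capitals.
AT1G44880: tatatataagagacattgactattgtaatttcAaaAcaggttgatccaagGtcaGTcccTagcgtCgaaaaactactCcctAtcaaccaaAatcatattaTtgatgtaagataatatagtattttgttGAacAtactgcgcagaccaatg
AT4G03970: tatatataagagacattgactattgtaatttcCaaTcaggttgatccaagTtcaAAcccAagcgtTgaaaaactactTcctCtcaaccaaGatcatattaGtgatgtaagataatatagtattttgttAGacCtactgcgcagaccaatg
The first 150 bases of AT5G36005 (chr5:14144014-14144163, plus strand) are identical to those of AT1G35390 (chr1:13008911-13009060, plus strand), so a 100-base read from within them can be placed only through its mate, as the reads are paired-end.
AT5G36005: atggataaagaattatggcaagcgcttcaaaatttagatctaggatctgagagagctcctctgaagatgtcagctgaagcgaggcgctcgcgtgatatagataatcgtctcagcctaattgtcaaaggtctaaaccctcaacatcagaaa
Over the whole genes such stretches are few. Of the 100-base windows that lie within an exon, 7.19% of 1683 in AT1G44880 and 12.97% of 5082 in AT5G36005 occur exactly elsewhere in the genome, on either strand.

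Libraries held 8448989 to 12942034 counts in the experiment with *ldl2* and 8252720 to 10656469 in the experiment with *ashh3*. The mutated genes followed their labels in part. Mean SUVH4 mRNA was 13.8 counts per 1000000 counts of the library (CPM) in WT, 3.69 in suvh456, and 8.24 in sxc, mean SUVH5 mRNA was 4.95 CPM in WT and 1.18 in suvh456, and mean CMT3 mRNA was 35.9 CPM in WT, 9.83 in cmt23, and 21.1 in sxc. SUVH6 was not lower in suvh456 (24.7 CPM compared with 20.1 in WT) and was highest in sxc ldl2 (43.1 CPM), and CMT2 was at 26.4 CPM in cmt23 compared with 38.6 in WT (edgeR adjusted P = 0.0537). Reads on LDL2 remained in *ldl2*, with 3.03 to 3.60 CPM as genotype means compared with 3.95 to 4.33 in the genotypes with LDL2, and ASHH3 was at 12.5 CPM in cxs ashh3 compared with 17.4 in cxs (edgeR adjusted P = 0.171). Counts of these 4 genes therefore do not check the labels. The leaf markers RBCS1A, LHCB1.1, LHCB2.1, and RCA summed to between 10437 and 33312 CPM in the experiment with *ldl2*. There 3 seed markers summed to at most 3.77 CPM, in cxs ldl2 replicate 2. Of this, 3.27 CPM came from OLEO1, which was counted on the antisense strand. In the experiment with *ashh3* the leaf markers summed to between 14712 and 19785 CPM. The median of the root marker PYK10 was 95.3 CPM in the experiment with *ldl2* and 1269 CPM in that with *ashh3*. For the root markers COBL9 and GL2 (counted antisense) the medians were 0 and 73.2 CPM with *ldl2*, and 1.67 and 59.6 CPM with *ashh3*. Levels were not tested between the experiments. cxs ldl2 replicate 2 stood apart, with the lowest leaf sum and 30088 genes detected compared with 24637 to 27758 in the other 26 libraries, and values of cxs ldl2 are therefore also given without it. In bulk tissue, a lower level in every cell and fewer expressing cells cannot be told apart.

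AT1G44880 had no counts in any of the 3 WT, 3 sxc, or 3 cxs libraries. It had 19, 20, and 34 counts in suvh456 and 5, 3, and 2 in cmt23. Without LDL2 it had counts in all 12 libraries, with 314, 274, and 268 in suvh456 ldl2, 157, 46, and 44 in cmt23 ldl2, 11, 21, and 15 in sxc ldl2, and 28, 50, and 160 in cxs ldl2. Every library without LDL2 thus held more counts of AT1G44880 than any library of the same background with LDL2. A count of 0 in 3 libraries allows up to 0.0884 CPM in WT, 0.0950 in sxc, and 0.0948 in cxs (3 counts over the scaled totals of the group). These floors, and the counting intervals given later, cover counting error only.

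AT5G36005 had no counts in any WT or sxc library, and 5, 0, and 1 counts in cxs. It had 137, 174, and 209 counts in suvh456 and 5, 4, and 5 in cmt23. Without LDL2 it had 209, 241, and 176 counts in suvh456 ldl2, 152, 56, and 64 in cmt23 ldl2, 31, 53, and 9 in sxc ldl2, and 6, 20, and 31 in cxs ldl2. Libraries with and without LDL2 did not overlap in cmt23 and sxc. In cxs they were separated by CPM, with 0.587 CPM in the lowest cxs ldl2 library and 0.395 in the highest cxs library, 6 and 5 counts. In suvh456 they overlapped.

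**Figure D1:**
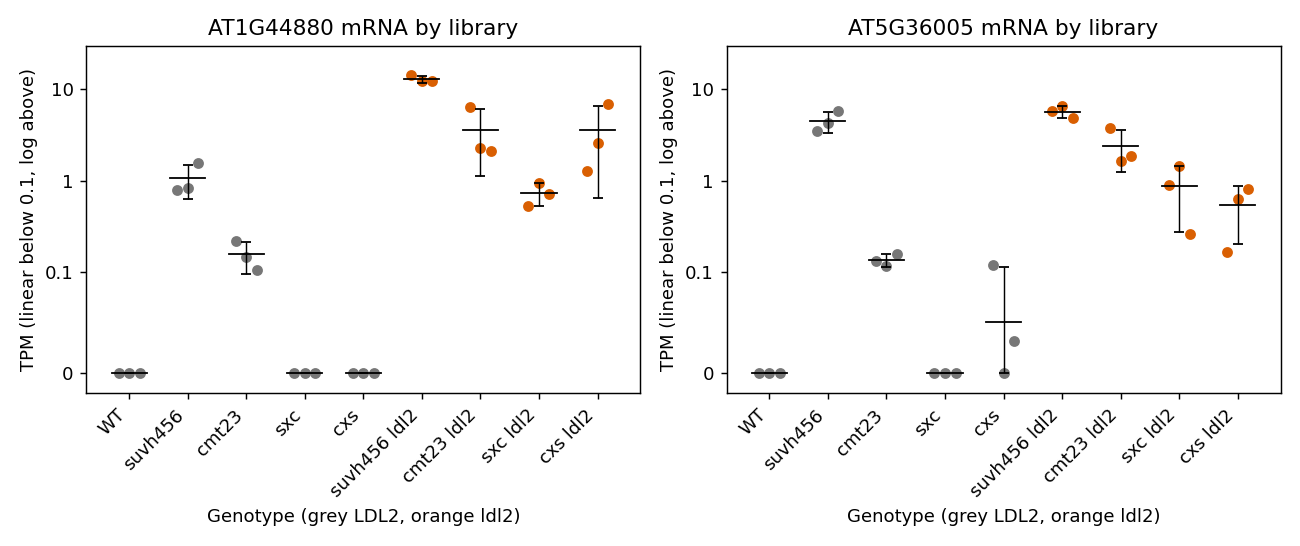
mRNA of AT1G44880 (left) and AT5G36005 (right) in each library, in TPM (CPM per kb of exon, scaled to 1000000 per library; the axis is linear below 0.1 and logarithmic above), by genotype. Points are libraries (grey with LDL2, orange without), bars are the mean and 1 SD of 3 libraries, cut at 0. AT1G44880 is highest in suvh456 ldl2, with a mean of 13.02 TPM, whereas AT5G36005 reaches similar levels in suvh456 with and without LDL2, 4.51 and 5.73 TPM.

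The loss of the H3K9 methyltransferases was compared with WT to ask whether the genes depend on these enzymes in seedlings that still have LDL2. Per the study, suvh456 and cmt23 both lose H3K9me2 and mCH in TEs, and neither mark was examined here. Both genes rose in suvh456. AT1G44880 was at 2.09 ± 0.96 CPM (SD, n = 3), at least 23.7-fold the WT floor, with an adjusted P of 0.00141 in edgeR's quasi-likelihood test over all genes. AT5G36005 was at 14.7 ± 4.46 CPM, at least 167-fold the WT floor (adjusted P = 6.5e-07 by the same test). Of all 33602 genes, 2.09% were called higher in suvh456 than in WT, and of the other LDL2-regulated TE genes 93 (48.4%) were called higher and 0 lower, with a median log2 fold change of 4.85 compared with 0 over all genes. At an unadjusted P under 0.05, 1 of these was lower in suvh456 in edgeR, and DESeq2 called 0 lower. All TE genes together, the list included, summed to 2409 to 3911 CPM in WT and 9906 to 10536 CPM in suvh456 libraries. Here and in the comparisons below, calls in the list were not compared with those in other TE genes. These suvh456 and cmt23 libraries were also the reference side of the comparisons by which the genes were chosen, a choice that favors low values in suvh456 for AT1G44880 and in cmt23 for both genes.

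In cmt23, neither gene passed the test. As the choice of both genes favors low values in cmt23, this does not show that they stayed at the WT level. AT1G44880 was at 0.305 ± 0.12 CPM, 10 counts over 3 libraries and at least 3.45-fold the WT floor (edgeR adjusted P = 0.174), and AT5G36005 was at 0.434 ± 0.054 CPM, 14 counts and at least 4.91-fold the WT floor (edgeR adjusted P = 0.0899). Each of the 3 cmt23 libraries held counts of both genes and no WT library did. The call depended on the test, because the Wald test of DESeq2 gave an adjusted P of 0.0284 for AT1G44880 and 0.00938 for AT5G36005. Over all genes, 2.32% were called higher in cmt23 than in WT, and 61 (31.8%) of the other list genes were called higher and 0 lower, with a median log2 fold change of 1.91. None of these was lower at an unadjusted P under 0.05 in edgeR or called lower by DESeq2.

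Between the mutant parents, AT5G36005 was 34.0-fold higher in suvh456 than in cmt23. As the gene was chosen in part for low values in cmt23 and not through suvh456, this ratio is a description without a test. The 534 counts behind this ratio give a 95% counting interval of 19.7 to 61.5 (exact conditional binomial). AT1G44880 was 6.86-fold higher in suvh456, with all 3 suvh456 libraries above all 3 cmt23 libraries, and did not pass the test (edgeR log2 fold change of 2.70, SE 0.72, adjusted P = 0.162). It was chosen through low values in both genotypes, so this test cannot decide whether its level differs between them. In this comparison 0.634% of all genes were called higher in suvh456, and 52 (27.1%) of the other list genes were called higher and 0 lower (1 lower at an unadjusted P under 0.05 in edgeR, 0 called lower by DESeq2).

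In the F1 plants, SUVH and CMT alleles come together again, and the crosses ask how far silencing is re-established. With LDL2 present, sxc had no counts of either gene, at most 7.92% of the mean of the parents for AT1G44880 and at most 1.25% for AT5G36005, both against the floor. cxs had at most 7.90% of the mean of the parents for AT1G44880 and 2.21% for AT5G36005, the latter from 6 counts. Both genes were lower in every sxc library than in every library of both parents, which held for 1.61% of all genes. In cxs this held for AT1G44880 and not for AT5G36005, whose cxs replicate 1 (0.395 CPM) exceeded cmt23 replicate 2 (0.378 CPM), and for 2.47% of all genes. The choice of the genes favors low values in sxc for AT5G36005 and in cxs for AT1G44880. The values of these F1 plants therefore restate it in part.

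The share of AT5G36005 in sxc ldl2 and that of AT1G44880 in cxs ldl2 restate the choice of the genes. AT5G36005 was at 2.86 ± 1.96 CPM in sxc ldl2, 21.0% of the mean of suvh456 ldl2 and cmt23 ldl2, and at 1.58 ± 0.94 CPM in cxs ldl2, 11.6% of it. AT1G44880 was at 1.43 ± 0.40 CPM in sxc ldl2, 8.60% of the mean of its parents, compared with at most 7.92% in sxc. In cxs ldl2 it was at 6.55 ± 5.39 CPM, 39.3% of the mean of its parents. Without cxs ldl2 replicate 2 the shares in cxs ldl2 were 11.2% for AT5G36005 and 46.3% for AT1G44880, and without replicate 3 they were 8.30% and 20.8%. In sxc ldl2 every library was below every parental library for both genes, compared with 1.55% of all genes. In cxs ldl2 this held for AT5G36005, compared with 5.66% of all genes, and not for AT1G44880, which in cxs ldl2 replicate 3 reached 12.7 CPM, above replicates 2 and 3 of cmt23 ldl2 (4.75 and 4.39 CPM).

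Between libraries without and with LDL2, the difference that chose the genes left no overlap in all 4 backgrounds for AT1G44880 and in sxc, cxs, and cmt23 for AT5G36005. For AT1G44880, the mean was 25.8 ± 2.25 CPM in suvh456 ldl2 and 12.3-fold that in suvh456, 7.62 ± 5.28 CPM in cmt23 ldl2 and 24.95-fold that in cmt23, at least 15.1-fold the sxc floor in sxc ldl2, and at least 69.1-fold the cxs floor in cxs ldl2. For AT5G36005, the mean was 18.8 ± 2.59 CPM in suvh456 ldl2 and 1.28-fold that in suvh456, 8.48 ± 4.16 CPM in cmt23 ldl2 and 19.6-fold that in cmt23, at least 30.1-fold the sxc floor in sxc ldl2, and 9.42-fold the cxs mean in cxs ldl2 (95% counting interval of the summed ratio, 3.74 to 24.6, from 57 and 6 counts). Every library without LDL2 was above every library with LDL2 in 3.23% of all genes for sxc and 6.64% for cxs. This held for 4.29% for suvh456 and 10.4% for cmt23, and genes separated in the other direction are not counted. No test was made of these differences or of how they vary between backgrounds.

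Several of these ratios rest on a few libraries. In cmt23 ldl2, replicate 1 held the most counts of both genes (13.7 CPM of AT1G44880 and 13.3 of AT5G36005, compared with 4.39 to 6.39 in the other two), and without it the ratios to cmt23 were 15.0 and 14.0. In that library the other list genes had a lower summed level, 1444 CPM compared with 1553 and 1575 CPM, and a higher median, 0.611 TPM compared with 0.458 and 0.471 TPM. In cxs ldl2, AT1G44880 was 36.5-fold the cxs floor or more without replicate 3 and 81.5-fold or more without replicate 2, the library that stood apart. Leaving out cxs ldl2 replicate 2 gave a ratio of 9.12 for AT5G36005 in cxs, and leaving out cxs replicate 1 gave 29.4, as that library held 5 of the 6 counts. The bound for AT1G44880 in sxc was at least 9.24-fold and that for AT5G36005 at least 18.5-fold when a library was left out.

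**Figure D2:**
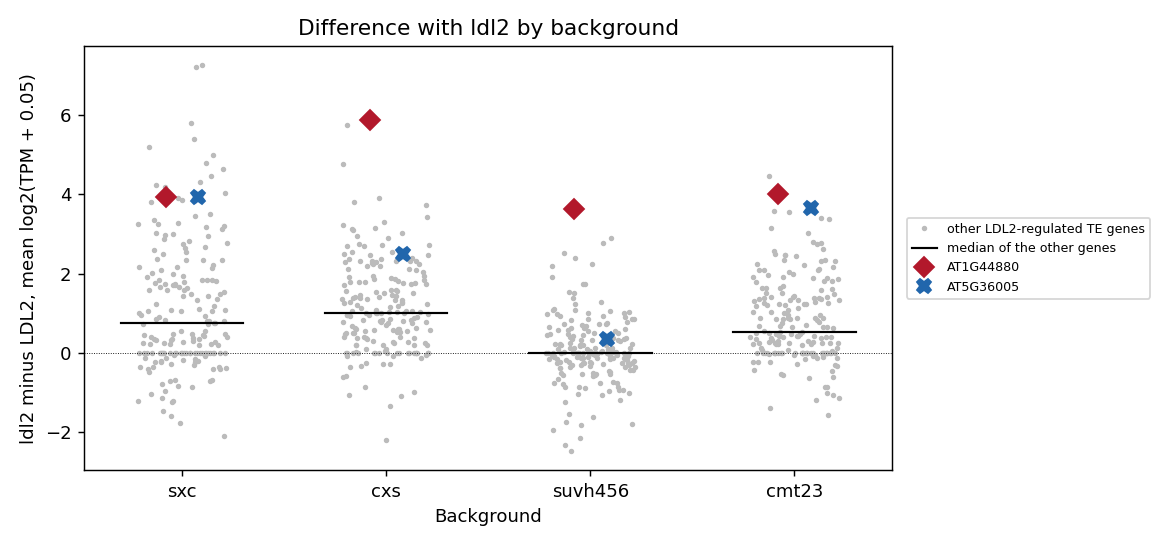
Difference between genotypes without and with LDL2 in the mean of log2(TPM + 0.05) over 3 libraries, in each of 4 backgrounds, for AT1G44880 (diamonds), AT5G36005 (crosses), and the other LDL2-regulated TE genes (grey dots; bars are their medians). AT1G44880 is at the top of the list in cxs and suvh456, with differences of 5.87 and 3.62, and AT5G36005 is near the median in suvh456, with 0.36.

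Within the list, the place of the genes differed between backgrounds. This in part restates their choice, through cxs, suvh456, and cmt23 for AT1G44880 and through sxc and cmt23 for AT5G36005. The differences described here are in log2(TPM + 0.05), where TPM is the level per exon length, and understate the change of genes with few counts. In suvh456 the median difference of the other list genes was 0, that of AT1G44880 was 3.62, and 0 list genes and 9 of all 3903 TE genes exceeded it. AT5G36005 differed by 0.36 there, and 56 list genes exceeded it. In cmt23, where the median of the other list genes was 0.52, AT1G44880 differed by 3.997 and AT5G36005 by 3.65, and 1 list gene exceeded each. In sxc (median 0.74) they differed by 3.93 and 3.92, and 13 list genes exceeded each. In cxs (median 1.011) AT1G44880 differed by 5.87, which no list gene exceeded, and AT5G36005 by 2.50, which 21 exceeded. When cxs ldl2 replicate 2 was left out, these differences became 5.93 and 2.28.

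Ordered by mean TPM, AT1G44880 was at 13.02 ± 1.15 TPM in suvh456 ldl2, above every library of the other genotypes. cxs ldl2 and cmt23 ldl2 followed with the same mean of 3.62 TPM and overlapping libraries, then suvh456 with 1.06 ± 0.43 and sxc ldl2 with 0.732 ± 0.21, which overlapped, then cmt23 with 0.155 ± 0.057. Lowest were WT, sxc, and cxs without counts. AT5G36005 was at 5.73 ± 0.88 TPM in suvh456 ldl2 and 4.51 ± 1.16 in suvh456, which overlapped. cmt23 ldl2 followed with 2.43 ± 1.18, whose highest library overlapped suvh456, then sxc ldl2 with 0.865 ± 0.59 and cxs ldl2 with 0.535 ± 0.33, which overlapped. cmt23 had 0.134 ± 0.021 TPM and overlapped cxs with 0.0503 ± 0.062, and WT and sxc had no counts.

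The balance of the 2 genes within a library does not depend on library size and differed between genotypes. The ratio of AT5G36005 to AT1G44880 in TPM was 3.70 to 5.23 in the 3 suvh456 libraries and 0.395 to 0.529 in the 3 suvh456 ldl2 libraries. It was 0.602 to 1.504 in cmt23 and 0.582 to 0.875 in cmt23 ldl2, which overlapped. Between the F1 crosses without LDL2, it was 0.361 to 1.70 in sxc ldl2 and 0.117 to 0.241 in cxs ldl2 (0.129 at most without replicate 2), and the libraries did not overlap. AT1G44880 was 4.57-fold higher in cxs ldl2 than in sxc ldl2 (2.42-fold without cxs ldl2 replicate 3), while AT5G36005 was 0.550-fold as high (0.813-fold without sxc ldl2 replicate 2). These were described only and not tested, as the *ldl2* libraries chose the genes.

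**Figure D3:**
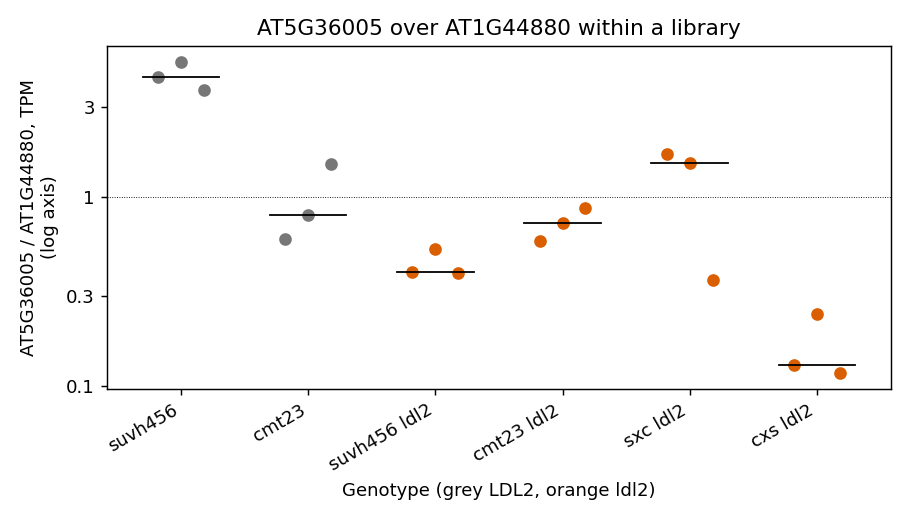
Ratio of AT5G36005 to AT1G44880 in TPM within each library (logarithmic axis), in the 6 genotypes with counts of AT1G44880 (grey with LDL2, orange without); bars are medians of 3 libraries. The ratio is 3.70 to 5.23 in suvh456 and below 1 in all libraries of suvh456 ldl2, cmt23 ldl2, and cxs ldl2.

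TE genes with sequence similarity to the members were found from the genome, with at least 50% of a member's span aligned, after the members' values were known. For AT5G36005, AT1G35390 also belongs to the list and had 29, 23, and 41 counts in suvh456 and 42, 43, and 26 in suvh456 ldl2, no counts in WT, and 1 count over the 3 sxc and 0 over the 3 cxs libraries. It had 3, 5, and 0 counts in cmt23 and 19, 5, and 7 in cmt23 ldl2. As with AT5G36005, suvh456 libraries with and without LDL2 overlapped, and replicate 1 was the highest in cmt23 ldl2. A more distant relative outside the list, AT3G43573 on chromosome 3, aligned over 55.6% of AT5G36005 with 64.5% identity and had 45, 44, and 66 counts in suvh456 and 108, 123, and 154 in suvh456 ldl2.

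For AT1G44880, 7 relatives were found, with 77.2% to 92.1% identity. None of them belongs to the list, and they did not behave alike. AT4G03970 had 8, 11, and 9 counts in suvh456 and 32, 103, and 69 in suvh456 ldl2, 0, 0, and 1 in cmt23 and 8, 9, and 12 in cmt23 ldl2, and 5, 0, and 0 in WT. Its libraries with and without LDL2 overlapped in sxc (1, 0, and 3 compared with 0, 2, and 6) and in cxs (5, 1, and 0 compared with 0, 3, and 24). AT3G42530 had 1 count over the 3 suvh456 libraries and 11, 17, and 9 in suvh456 ldl2, and AT3G43020 had 1, 1, and 0 and 5, 5, and 9. In cxs ldl2, replicate 3 was the highest library of AT4G03970 and AT3G42530, with 24 and 9 counts, as it was of AT1G44880. AT2G10350 covers 100% of AT1G44880 with 91.0% identity and had at most 3 counts in any genotype, and AT5G28970 had 1 count over all libraries. AT1G42420, counted on the antisense strand, had no counts in suvh456 or suvh456 ldl2, 9 in WT, and 20 in cxs ldl2. AT1G35110, aligned over 59.1% of AT1G44880 and also counted antisense, had 440 to 587 counts in every genotype, WT included, and its suvh456 libraries (172, 188, and 131) overlapped those of suvh456 ldl2 (143, 151, and 171). Whether reads of a relative were counted on a member was not tested.

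**Figure D4:**
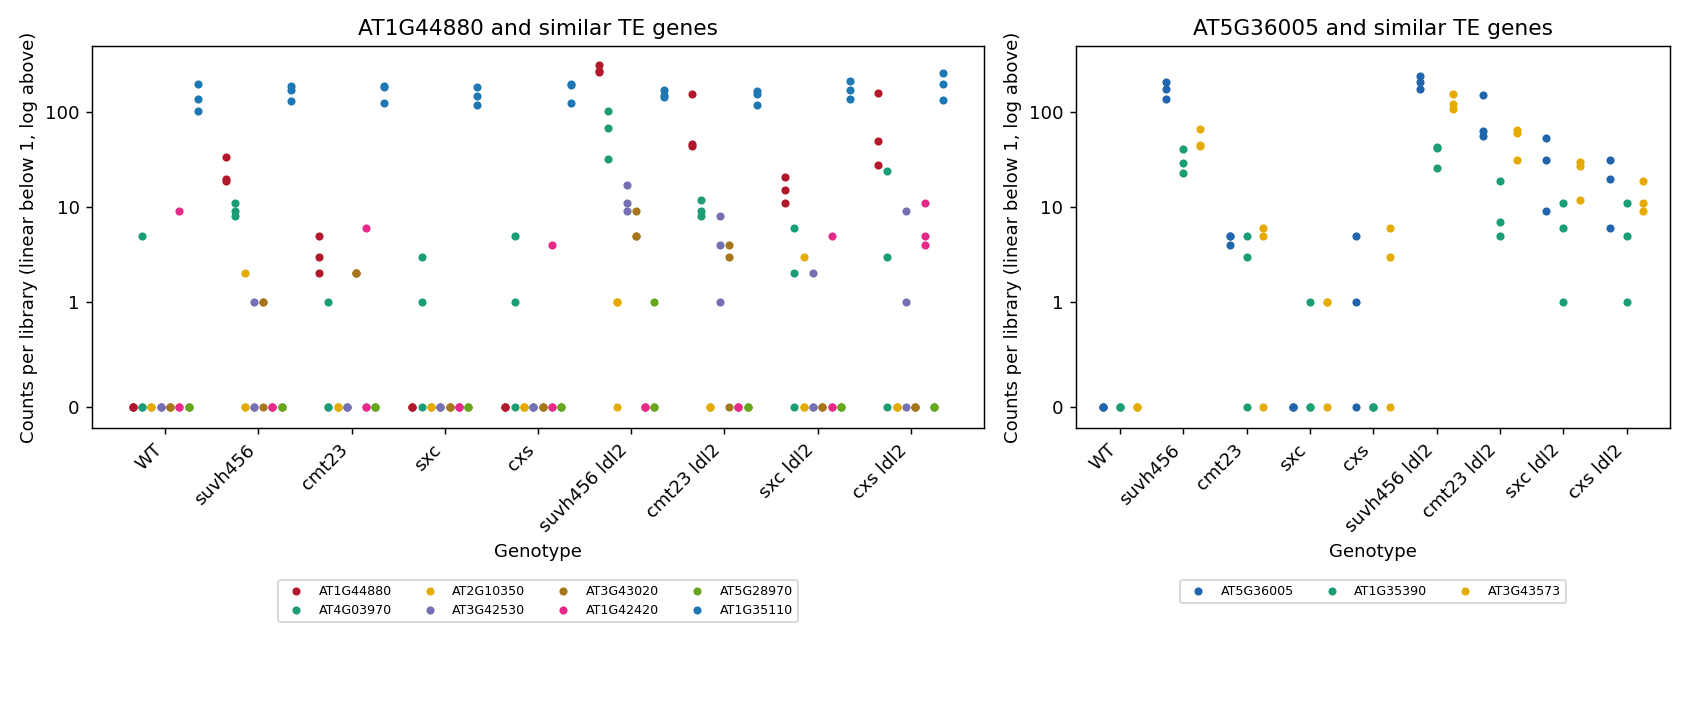
Counts per library (linear below 1 and logarithmic above) of AT1G44880 with its 7 relatives (left), and of AT5G36005 with AT1G35390 and AT3G43573 (right), by genotype. Points are libraries. All 3 suvh456 ldl2 libraries are above all 3 suvh456 libraries for AT1G44880, AT4G03970, AT3G42530, AT3G43020, and AT3G43573, whereas they overlap for AT5G36005, AT1G35390, and AT1G35110, and AT2G10350, AT1G42420, and AT5G28970 are at or near 0 in both.

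The TE genes around the members had too few counts to compare their patterns. The 5 TE genes within 10 kb of AT1G44880 (AT1G44840, AT1G44850, AT1G44860, AT1G44870, and AT1G44875) had 6 to 14 counts each over all 27 libraries. In cxs ldl2 were 5 of the 6 counts of AT1G44850, AT1G44860, and AT1G44870, 5 of the 8 of AT1G44875, and 7 of the 14 of AT1G44840, and all but 1 of these were in replicate 2, the library that stood apart. The protein-coding AT1G44890 ranged from 3.18 to 4.58 CPM between genotypes. Beside AT5G36005, the TE genes AT5G36010 and AT5G36015 had 5 and 2 counts over all 27 libraries. Its closest neighbors, AT5G36001 and AT5G36002, lie 578 and 773 bases before it and ranged from 3.76 to 5.85 and from 3.43 to 5.34 CPM. YAK1 (AT5G35980), which encodes a protein kinase, ranged from 90.6 to 144 CPM, AT5G35995 from 8.90 to 12.9 CPM, and AT5G36000 from 2.25 to 3.996 CPM. Both AT5G36000 and AT5G36001 were counted on the antisense strand in this table.

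The genes whose level was most like that of the members over the 9 genotypes were sought by Pearson's r of log2(mean CPM + 0.1) among 23259 genes with a mean of at least 1 CPM in some genotype. For AT5G36005 these were the TE genes AT3G43573 (r = 0.99), AT4G04590 (r = 0.99), AT3G30170 (r = 0.98), AT3G27883 (r = 0.98), and AT1G35380 (r = 0.98), and AT3G43573 is the relative described above. For AT1G44880 they were the TE gene AT5G27505 (r = 0.99), the protein-coding AT1G77960 (r = 0.97), AT3G30170 (r = 0.96), the protein-coding AT1G36272 (r = 0.95), and the TE gene AT5G15990 (r = 0.94). AT3G30170 was on both lists, at 6.06 CPM in suvh456, 11.9 in suvh456 ldl2, and 0.0569 in sxc. AT1G77960 had mRNA in WT, with 8.10 CPM compared with 29.2 in suvh456 and 55.7 in suvh456 ldl2. The members correlated with each other with r = 0.91, and 21 genes were closer to AT1G44880 and 65 closer to AT5G36005. Without cxs ldl2 replicate 2 the r of these genes and of the pair lay between 0.90 and 0.99. These values describe 9 means that share libraries and depth. The genotypes through which the members were chosen are among the 9, so the r values restate that choice in part.

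In the experiment with *ashh3*, both genes were close to the limit of counting and no difference was detectable at this depth. AT1G44880 had no counts in WT, 0, 5, and 0 in cxs, and 0, 0, and 2 in cxs ashh3. Its adjusted P in edgeR was 0.516 for cxs compared with WT, 0.676 for cxs ashh3 compared with WT, and 0.957 for cxs ashh3 compared with cxs. For AT5G36005 this table holds the antisense strand, whereas the table with *ldl2* holds the sense strand, so that the tables measure different strands of this gene. Its antisense counts were 0, 1, and 1 in WT, 2, 0, and 3 in cxs, and 2, 0, and 0 in cxs ashh3, with adjusted P of 0.858, 1, and 0.919 in the same order (edgeR). Over all genes, 5.63% were called in either direction between cxs and WT, 798 higher and 1093 lower in cxs. Between cxs ashh3 and WT 5.43% were called, 684 higher and 1139 lower, and between cxs ashh3 and cxs 1.06%. The last were 187 higher and 170 lower with TMM scaling and 201 higher and 101 lower with total counts.

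Other LDL2-regulated TE genes were called in the same libraries. Of the list, 50 (26.0%) were called higher and 0 lower in cxs than in WT (median log2 fold change of 1.80), 34 higher and 0 lower in cxs ashh3 than in WT (median 0.41), and 3 higher and 14 lower in cxs ashh3 than in cxs (median -0.43), and the median over all genes was 0 in each. At an unadjusted P under 0.05 in edgeR, 1 was lower in cxs and 3 in cxs ashh3 than in WT, and DESeq2 called 0 lower in both. Between cxs ashh3 and cxs, DESeq2 called 3 of the list higher and 9 lower, fewer lower than the 14 of edgeR. Seed markers summed to 119 CPM in cxs replicate 3 and to between 0.314 and 17.5 CPM in the other 8 libraries. That library had 0 counts of AT1G44880 and 3 of AT5G36005, and the part of the seed RNA in these values was not tested.

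Of 17 genes of silencing pathways (histone demethylases, DNA methyltransferases, RNA-directed DNA methylation, and remodelers), 0 were called higher by edgeR in any of the 6 tested comparisons, 0 to 3 were higher at an unadjusted P under 0.05, and DESeq2 called 1 higher in cxs and 1 in cxs ashh3 compared with WT. IBM1, the H3K9 demethylase that protects transcribed genes, was called lower in suvh456 than in WT (edgeR log2 fold change of -1.23, adjusted P = 2.2e-06) and in cmt23 than in WT (edgeR log2 fold change of -0.77, adjusted P = 0.0022). IBM1 was also called lower than in WT in cxs (edgeR log2 fold change of -0.51, adjusted P = 0.017) and in cxs ashh3 (-0.71, adjusted P = 0.0015). The counts called lower were 1 of 17 in suvh456 and 2 of 17 in cmt23 compared with WT, 1 of 17 in suvh456 compared with cmt23, and 1, 1, and 0 of 17 in the comparisons with *ashh3*. At an unadjusted P under 0.05 in edgeR, 1 to 4 were lower. Of all 33602 genes, 177 were called lower in suvh456 and 456 in cmt23 than in WT, and 15 in suvh456 than in cmt23. LDL2 itself was not called in suvh456 compared with WT (edgeR log2 fold change of -0.13, adjusted P = 0.973).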

How the data were processed

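Total RNA of 2-week-old seedlings was sequenced as paired-end mRNA-seq by the authors, clipped to 100-base reads, mapped to TAIR10 with STAR, and counted per gene with its GeneCounts mode, which keeps uniquely mapped reads. The deposited tables hold raw counts that are not normalized. For each TE gene the authors took the strand with the larger sum, separately per table, so tests were made within a table. Groups came from the sample labels. A further 12 count tables that carry no sample name were not used.

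The members and lists were chosen with earlier results of these data known. The genes named are the 2 members, their neighbors within 10 kb, the 5 genes most like each member, the mutated genes, and a list of pathway genes. The list of LDL2-regulated TE genes comes from the supplementary data of the study. Related copies were named outside this rule.

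Counts were scaled by TMM and fitted over all genotypes of a table in edgeR 4.0.16 (R 4.3.3), without a filter, by the quasi-likelihood F test. Benjamini-Hochberg adjustment covered all 33602 genes, with a threshold of 0.05. The fit was tested on simulated data. CPM uses TMM-scaled totals. TPM uses exon lengths of TAIR10.1, or the span for 775 genes without exons there. Log2 TPM used a pseudocount of 0.05. Where a group had no counts, a ratio used 3 counts over the group. Sequences were aligned with blastn (BLAST version 2.17.0). Of the 3903 TE genes, 3895 have the same start and end in TAIR10.1. Replicates were separate biological samples per the study's methods, and no pair of replicates agreed within sampling noise (lowest chi-square over its degrees of freedom, 3.39). Alternatives were RLE scaling, total counts, the filter filterByExpr, fits of only the compared groups, a replicate block, the likelihood ratio test, bias-adjusted quasi-dispersions, the Wald test of DESeq2 (version 1.42.0), and leaving out each library. F1 shares without single libraries, and log2 TPM and likeness without cxs ldl2 replicate 2, were added after seeing the data.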

Additional observations from a re-analysis of the deposited data

How the results depend on the processing

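The calls of both genes in suvh456 compared with WT held under every alternative run. Leaving out a library gave adjusted P of 0.00215 to 0.0115 for AT1G44880 and 1.4e-06 to 1.3e-05 for AT5G36005 in suvh456 compared with WT (edgeR). Other results passed only under some tests. In cmt23 compared with WT, the likelihood ratio test of edgeR gave adjusted P of 0.0193 for AT1G44880 and 0.00356 for AT5G36005, and DESeq2 gave 0.0284 and 0.00938. The choice of both genes favors low values in cmt23. For AT1G44880 in suvh456 compared with cmt23, adjusted P was 0.00697 by the likelihood ratio test, 0.0433 with only the compared groups, and 0.0224 by DESeq2, but 0.194 to 0.700 when a library was left out (edgeR). As AT1G44880 was chosen through low values in both genotypes, these values do not decide that comparison. In the experiment with *ashh3*, 2 to 5 counts decide the direction. For AT5G36005 it turned in cxs ashh3 compared with WT with the replicate block (adjusted P = 1, edgeR) and in some fits without a library (0.827 to 1), and for AT1G44880 in cxs ashh3 compared with cxs without cxs replicate 2 (0.830 to 1 over the libraries left out). The filter and DESeq2 gave no value for either gene there. Of 156 alternative values of the tests, 143 kept their direction and side of the threshold, and 2 had a fold change of 0 and no direction. The 156 include AT5G36005 in suvh456 compared with cmt23, which the choice of the gene favors and which is only described here. When a library was left out, the *ldl2* difference in mean CPM of AT1G44880 was 3.47 to 8.46 in cxs (6.55 with all libraries) and 4.27 to 8.93 in cmt23 (7.32), and that of AT5G36005 was 2.21 to 6.54 in suvh456 (4.06).

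Replicate numbers do not pair the samples, because only 2 of 18 correlations of same-numbered samples exceeded 0.1 (-0.29 to 0.13). With the replicate block, adjusted P in suvh456 compared with WT was 0.00309 for AT1G44880 and 3.5e-06 for AT5G36005 (edgeR). In cmt23 compared with WT it was 0.205 and 0.128, and for AT1G44880 in suvh456 compared with cmt23 it was 0.242 (edgeR). None of these calls changed.

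Counts of called genes moved more. In cmt23 compared with WT they were 1234, but 2504 with only the compared groups, 2313 by DESeq2, and 548 to 1009 without a library. In suvh456 compared with WT they were 878 and 1390 by DESeq2. In suvh456 compared with cmt23 they were 228, 354 by the likelihood ratio test, and 352 with only the compared groups. Between cxs ashh3 and cxs they were 357, 162 with the filter, 197 with bias-adjusted dispersions, 552 by the likelihood ratio test, and 223 to 523 without a library, and between cxs ashh3 and WT 1823 and 1128 to 1966. The causes were not tested. Depth limits the values near 0, where 3 counts over a group correspond to about 0.1 CPM.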
